A study of Sus scrofa with 32 samples.

Results

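JCHAIN and PIGR, the genes for the J chain and for the polymeric immunoglobulin receptor, were followed through every cell gate and every library of the porcine ileum and blood. They are 2 of the 25880 genes in the count matrices and were taken by gene symbol, with no cut on a measured value. Earlier results of these data were known when they were chosen. The J chain is a small protein made by antibody-secreting cells (ASCs) that joins IgA into dimers and IgM into pentamers. The polymeric immunoglobulin receptor sits on the basolateral face of mucosal epithelial cells, binds immunoglobulin that carries J chain, moves it across the cell and is cleaved at the lumen to leave secretory antibody. The intestine is the classic site of this exchange, with ASCs in the lamina propria as the source and crypt epithelium as the route.

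In the RefSeq annotation of the Sscrofa11.1 assembly, JCHAIN lies on chromosome 8 from base 67439405 to 67448628, a span of 9224 bp. PIGR lies on chromosome 9 from base 67553094 to 67574698, a span of 21605 bp.

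Cells came from 2 mixed-breed pigs, both 7 weeks old and untreated, with pig 1 labelled female and pig 2 labelled male. From each animal the distal ileum was cut into a piece holding Peyer's patches (PP), a piece without them (non-PP) and a full cross section (whole ileum), and peripheral blood mononuclear cells (PBMCs) were taken in parallel, which gave 8 libraries in 4 groups of 2. Epithelial and lamina propria fractions were pooled and then enriched for live lymphocytes on a density gradient, so the number of epithelial cells here is not their number in tissue. The 3 ileal libraries of 1 pig are not independent animals, and p-values over libraries measure only the spread between these libraries.

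The libraries held 21134542 to 40111934 UMIs (unique molecular identifiers, each counting 1 captured transcript), and 3776 to 7704 cells per library passed quality control, 48629 in all, with a median of 2577.5 to 3583.5 UMIs per cell. UMIs of 5 Y-linked genes stood at 0 to 0.224 CPM (counts-per-million, the UMIs of a gene scaled to the UMIs of the cells summed) in 3 libraries labelled pig 1 and at 119 to 226 CPM in the 4 libraries of pig 2. The library labelled whole ileum of pig 1 stood at 207 CPM and goes against its label. The tests of gates against ambient and the fits across genes were therefore also computed without it, except the fits of the second split (introduced with the JCHAIN-rich cells) other than that of its plasma-list-high cells. Cell barcodes shared between libraries were near the number expected from their sizes, the largest excess being 70 against 53.4 for the library labelled whole ileum of pig 1 and PBMCs of pig 2.

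Cells were sorted into gates by genes other than JCHAIN and PIGR. T cells carried at least 2 UMIs of the CD3 genes, B cells at least 2 UMIs over a list of B cell genes that included CD79A, CD79B and MS4A1, and epithelial cells at least 2 UMIs of EPCAM. The plasma gate asked for PRDM1, for 5 UMIs over XBP1, TNFRSF17, MZB1, TXNDC5 and DERL3 (the plasma list), and for no CD3 UMI. T and B cells carried no UMI of each other's list, and cells of the B, T and plasma gates carried no EPCAM. Barcodes of 1 to 99 UMIs, taken to hold free RNA, gave the ambient level of each library. Markers ran with the gate names: the plasma list summed to 2457 to 9559 CPM in the ileal plasma gate against 373 to 976 CPM in B cells, and a list of 10 epithelial genes summed to 9156 to 12464 CPM in the epithelial gate against 19.7 to 133 CPM in ileal B cells. Neither gate was free of transcripts on the lists of other cell types. The ileal plasma gate gave a myeloid sum of 0 to 778 CPM (median 67.0 CPM) and a stromal sum of 0 to 4314 CPM. Of 6 myeloid genes tested, 5 were above the B gate, a direction in which 7.66% of all genes were called. The epithelial gate gave a myeloid sum of 380 to 3305 CPM (median 786 CPM), 28.2 to 248 CPM of CD3 genes and 260 to 444 CPM of the plasma list. In the non-PP epithelial gate the plasma list stood at 260 and 269 CPM and the B cell list at 1.44 and 4.96 CPM. Whether such UMIs came from the gated cells or from others was not tested, nor was their part in the values of either gate.

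JCHAIN was concentrated in a very small number of cells. Cells of 100 or more JCHAIN UMIs numbered 103 and 106 in PP, 11 and 26 in non-PP, 63 and 152 in whole ileum and 49 and 46 in PBMCs (pig 1 and pig 2 in each case). They were 0.281% to 1.97% of quality-controlled cells in every library. Those few cells held nonetheless most of the transcript, with 91.4% and 91.8% of JCHAIN UMIs in PP, 95.4% and 96.99% in non-PP, 92.2% and 93.9% in whole ileum and 83.6% and 83.1% in PBMCs. The richest single cell, in PP of pig 1, gave 3209 JCHAIN UMIs among 14305.

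**Figure D1:**
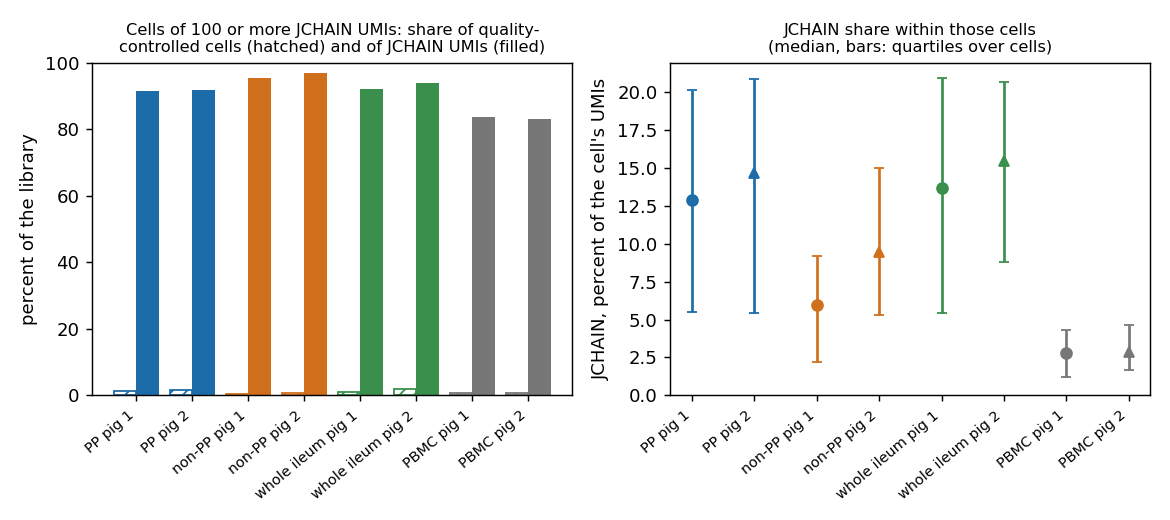
Cells of 100 or more JCHAIN UMIs in each library, with, left, their share of quality-controlled cells (hatched bars, percent) and of the JCHAIN UMIs of those cells (filled bars, percent) and, right, JCHAIN as a percent of the UMIs of each such cell (points, median, and bars, quartiles over cells). They were under 2% of cells everywhere and held 83.1% to 96.99% of JCHAIN UMIs.

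Within these cells JCHAIN took 12.9% and 14.7% of all UMIs in PP at the median, 5.96% and 9.48% in non-PP and 13.7% and 15.5% in whole ileum. In PBMCs the same median was 2.82% and 2.85%, below every ileal library. Because the cells were picked by JCHAIN itself, these shares are a description and were not tested.

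The cells that carried most JCHAIN were also rich in the plasma list, which the cut on JCHAIN did not use. Of 461 such cells in ileum, 452 had 10 or more plasma-list UMIs, and in PBMCs 94 of 95 did. Only 99 of the 461 fell in the plasma gate, however, while 87 were in the B gate, 15 in the T gate, 2 in the epithelial gate and 258 in none. CD3 UMIs, which the plasma gate forbids, were present in 204 of the 461. A PRDM1 UMI, which that gate requires, was present in 59.2% and 35.8% of such cells in PP, 72.7% and 34.6% in non-PP and 49.2% and 38.8% in whole ileum. Scrublet, which looks for droplets holding a pair of cells, marked 1 or 0 of these cells in each library. A second split was therefore made after the data had been seen. In it any cell of 10 or more plasma-list UMIs and under 2 EPCAM UMIs was called plasma-list-high, whatever its CD3 or PRDM1. All cells of 10 or more plasma-list UMIs were taken out of the B, T and epithelial gates. Values of that split are given beside those of the gates. Because it was drawn after seeing in which cells JCHAIN lay, p-values for JCHAIN in the split are descriptive.

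JCHAIN in the plasma gate stood at 51835 and 40103 CPM in PP, 50967 and 46093 CPM in whole ileum, and 25143 and 24713 CPM in PBMCs. The non-PP libraries gave 52869 CPM from 4 cells and 69608 CPM from 1 cell, too few to enter a fit. The plasma-list-high cells numbered 224 and 264 in PP, 14 and 25 in non-PP, 143 and 286 in whole ileum and 62 and 57 in PBMCs. They gave 50198 and 46195 CPM in PP, 52345 and 104972 CPM in non-PP, 60709 and 69985 CPM in whole ileum and 21612 and 22924 CPM in PBMCs. All 6 ileal values lay above both PBMC values under either definition, a difference that was not tested.

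Ambient JCHAIN was itself high in the ileum, at 3534 and 4553 CPM in PP, 519 and 1108 CPM in non-PP and 3986 and 5496 CPM in whole ileum, against 769 and 699 CPM in PBMCs. JCHAIN in the plasma gate exceeded the ambient level of its own library in 6 of 6 ileal libraries, by 4.40 on the log2 scale (SD 1.54, exact two-sided sign-flip test over 6 libraries, p = 0.03125, adjusted p = 0.0417 over 8 tests, 0.03125 being the smallest p that 6 libraries allow). The highest ratios, 6.67 and 5.97, came from the non-PP sums of 4 cells and 1 cell. The PP and whole ileum libraries gave 3.07 to 3.87. With 5 libraries, the one labelled whole ileum of pig 1 left out, the smallest p is 0.0625 and no such test can pass. The other 3 gates did not stand above it. Ileal T cells lay below it (log2 ratio -2.75, SD 1.49, exact sign-flip test, adjusted p = 0.0417) and so did epithelial cells (log2 ratio -4.13, SD 1.73, same test, adjusted p = 0.0417). The B gate gave a log2 ratio of -0.22 (SD 2.01, exact sign-flip test, adjusted p = 0.844) and did not pass, with 1 library, non-PP of pig 2, at 3.85 and the other 5 below 0. Without plasma-list-high cells all 6 B libraries were below ambient, by -2.87 on the log2 scale (exact sign-flip test, adjusted p = 0.03125), and -2.76 without the library labelled whole ileum of pig 1 (5 of 5 below, exact sign-flip test, p = 0.0625, the smallest for 5). The cells left out had been seen to hold much of the JCHAIN, so these split values are a description.

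**Figure D2:**
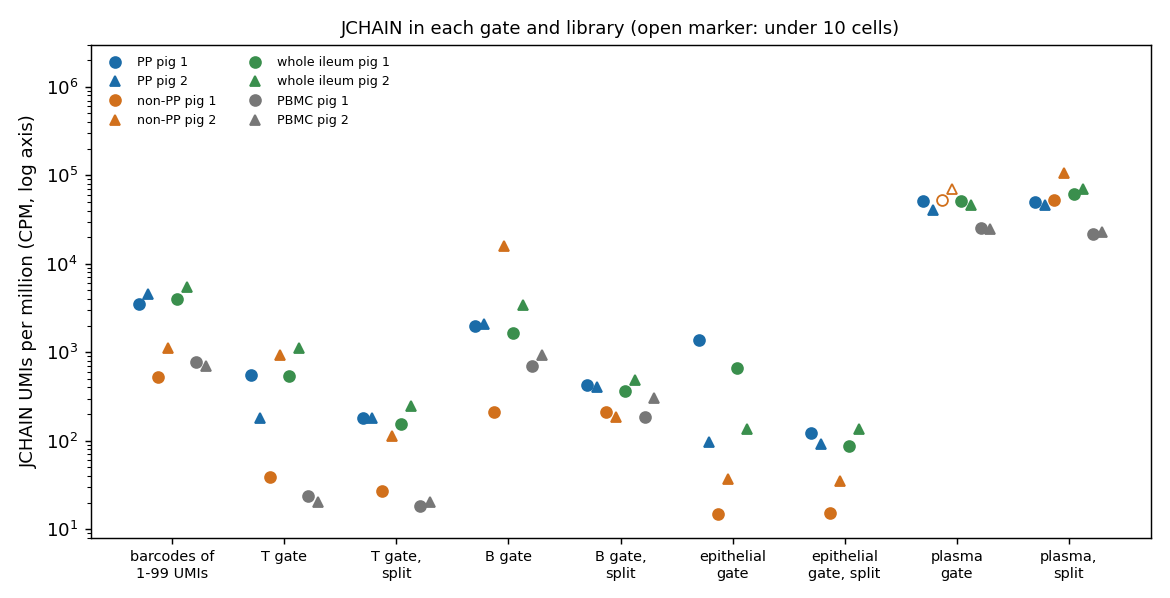
JCHAIN (CPM, log axis) in barcodes of 1 to 99 UMIs and in the T, B, epithelial and plasma gates, where each point is 1 library (circles pig 1, triangles pig 2, open points under 10 cells) and "split" marks gates without cells of 10 or more plasma-list UMIs, or for plasma all such cells. Plasma values, 21612 to 104972 CPM, lie above all other values, the nearest being the B gate of non-PP pig 2 at 16025 CPM, which the split lowers to 188 CPM.

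In B cells the gate values were 1966 and 2063 CPM in PP, 213 and 16025 CPM in non-PP, 1635 and 3443 CPM in whole ileum and 695 and 938 CPM in PBMCs. Plasma-list-high cells accounted for most of this, holding 78.6% to 98.9% of JCHAIN UMIs in 5 of 6 ileal B gates and 74.0% and 68.9% in PBMCs. In non-PP of pig 2 the value came from 36 cells, of which 2 plasma-list-high cells held 98.9% of it. Without such cells, B cells carried 428 and 408 CPM in PP, 213 and 188 CPM in non-PP, 366 and 485 CPM in whole ileum and 184 and 303 CPM in PBMCs.

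The T gate, which should lack the gene, was taken as a guide to background, but in some libraries a few cells held much of its JCHAIN. Its JCHAIN stood at 549 and 180 CPM in PP, 39.0 and 932 CPM in non-PP, 537 and 1124 CPM in whole ileum, and only 23.5 and 20.5 CPM in PBMCs. Plasma-list-high cells in the T gate numbered 3 and 0 in PP, 1 and 5 in non-PP and 1 and 4 in whole ileum. They held 66.9% and 0% of its JCHAIN UMIs in PP, 30.1% and 88.0% in non-PP and 71.5% and 78.5% in whole ileum. Without plasma-list-high cells the T gate stood at 183 and 180 CPM in PP, 27.2 and 113 CPM in non-PP, 153 and 244 CPM in whole ileum, and 18.5 and 20.5 CPM in PBMCs. In that setting both the T level and the ambient level were lowest in non-PP and PBMCs and highest in whole ileum of pig 2.

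Epithelial cells, which bind J chain through their receptor but do not make it, held 1378 and 96.9 CPM in PP, 14.9 and 37.2 CPM in non-PP and 665 and 136 CPM in whole ileum. Without plasma-list-high cells they held 124 and 92.2 CPM in PP, 15.2 and 35.4 CPM in non-PP and 87.9 and 136 CPM in whole ileum. Epithelial minus T was -0.75 over the ileal libraries (SE 0.61, edgeR, adjusted p = 0.280) and -0.85 in the split (SE 0.33, adjusted p = 0.0262), so epithelial cells did not exceed T cells in either.

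B cells nonetheless carried more JCHAIN than T cells. After each cell was thinned to the same number of UMIs, the share of remaining B cells with a JCHAIN UMI was 40.6% and 39.8% in PP, 15% and 26.5% in non-PP, 33.5% and 44.6% in whole ileum and 10.2% and 16.2% in PBMCs. The share of T cells was 21.4% and 20.2% in PP, 3.48% and 7.99% in non-PP, 18.2% and 27.6% in whole ileum and 2.42% and 2.72% in PBMCs, lower than that of B cells in 8 of 8 libraries at like depth (median UMIs before thinning 2335.5 to 4318 in B cells and 2154 to 3150.5 in T cells). Before thinning the shares were 71.8% of B cells and 40.3% of T cells in PP of pig 1.

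Fitted over the ileal gates with library as a term, JCHAIN was 4.16 higher in plasma than in B cells on the log2 scale (SE 0.72, edgeR quasi-likelihood test, adjusted p = 0.000171), a direction in which 7.66% of 9492 genes tested were called. In the split, which was drawn after seeing in which cells JCHAIN lay, the difference was 8.30 (SE 0.42, with 15.5% of genes called higher) and is a description only. B exceeded T by 2.58 (SE 0.61, adjusted p = 0.000929, 28.2% called higher), and by 1.25 in the split (SE 0.32, adjusted p = 0.00139, 28.4% called higher), the latter again a description. Under the alternative gates (plasma from 10 plasma-list UMIs with no need for PRDM1, epithelial with no immune UMI), B minus T was -0.48 and did not pass (adjusted p = 0.205), but those gates took plasma-list-high cells out of B and left them in T, so this is not the same contrast as either value above. Without the library labelled whole ileum of pig 1, plasma exceeded B by 4.05 (adjusted p = 0.00320) and B exceeded T by 2.69 (adjusted p = 0.00400).

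Genes of antibody secretion were, like JCHAIN, higher in the plasma gate than in B cells, but did not follow it across the other gates. Of 20 list genes tested, 18 were higher and 0 lower in the plasma gate than in B cells, with a median of 2.01 on the log2 scale against -0.18 over all genes. Over all 9492 genes of that contrast 727 were higher and 994 lower. In B minus T, 5 were higher and 11 lower, against 2678 and 2763 of all 9492 genes (median -0.44 against -0.02 over all genes). In epithelial minus T, 13 were higher and 2 lower, against 32.6% and 37.4% of all genes (median 0.77 against -0.12). CRELD2 and DNAJB9, both chaperone factors of the endoplasmic reticulum, rose by 3.57 (SE 0.22) and 2.55 (SE 0.16). SEC11C, a subunit of the signal peptidase, rose by 2.83 (SE 0.19), and SSR3, of the translocon-associated complex, by 2.18 (SE 0.13), with adjusted p of at most 1.45e-10 (edgeR). Among 7 homing genes 3 rose and 1 fell (edgeR): CCR10, the receptor for the mucosal chemokine CCL28, by 4.38 (SE 0.30, adjusted p = 1.88e-10), the gut-homing integrin chains ITGB7 by 2.62 (SE 0.15) and ITGA4 by 1.09 (SE 0.20, adjusted p = 0.000382), while CXCR4, a receptor that holds plasma cells in bone marrow, fell by 1.20 on the log2 scale (SE 0.18, adjusted p = 2.43e-05). In the split 18 of 20 secretion genes were again higher and 0 lower, and 0 of 4 myeloid genes tested passed.

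Among genes most like JCHAIN over 28 gate-by-library sums, the 5 with the highest correlation of log2(CPM + 1) had no symbol in the matrices or name tables. The first, ENSSSCG00000037141, had a Pearson r of 0.978 and the second, ENSSSCG00000038719, of 0.977. The sums share libraries and gates, so these values are a description. The only gene named as an immunoglobulin variable segment, IGLV2-33, had 0 UMIs in the plasma gate of every library, so antibody classes were not analysed here.

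Resting and cycling B cells were next compared, called by lists that included CCR7, KLF2 and FCER2 for the former and comprised TOP2A, PCLAF, BIRC5, UBE2C and CENPF for the latter. Without plasma-list-high cells, resting B cells held 381 and 550 CPM of JCHAIN in PP and 401 and 684 CPM in whole ileum. Cycling cells held 359 and 315 CPM in PP, 262 and 378 CPM in whole ileum and, in non-PP, 157 and 91.6 CPM from 11 and 18 cells. Each of these ileal values lay below the ambient level of its own library. The part of free RNA in them was not tested.

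As a share of UMIs, JCHAIN was thus lower in cycling than in resting B cells in the split, by a fitted -0.80 on the log2 scale (SE 0.10, edgeR, adjusted p = 2.85e-08, 28.3% of genes called lower). The log2 ratios of CPM averaged -0.59 over PP and whole ileum, with -0.09 in PP of pig 1. In the B gate as first drawn the fitted difference was -0.25 (SE 0.33, adjusted p = 0.545, 28.2% called lower) and the call was not made. The direction there differed between libraries. Cycling cells lay above resting ones in PP, at 856 and 746 CPM against 452 and 569 CPM. They lay below them in whole ileum, at 942 and 1104 CPM against 1045 and 2256 CPM. As the split was drawn after seeing in which cells JCHAIN lay, its value is a description. Cycling cells were the deeper, with a median of 3761.5 to 4637 UMIs against 2182.5 to 2247 in resting cells of PP and whole ileum. After thinning, the share of cells with a JCHAIN UMI was lower in cycling than in resting cells in PP of pig 2 (32.2% and 35.5%) and in both whole ileum libraries (26.4% and 27.2%, 35.6% and 42.4%), but higher in PP of pig 1 (35.9% and 29.3%). Of 19 secretion genes tested, 4 were higher and 12 lower in cycling than in resting B cells of the gate (median -0.48 against 0.02 over all genes), and 4 and 11 in the split. Over all 7984 genes of the gate fit 2451 were higher and 2251 lower.

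In blood the order in the split was the opposite. Resting PBMC B cells held 92.3 and 227 CPM, and cycling ones 560 and 743 CPM from 134 and 89 cells. Ambient JCHAIN there was 769 and 699 CPM. The log2 ratio of cycling to resting cells was -0.09 and -0.80 in PP, -0.61 and -0.86 in whole ileum, and 2.60 and 1.71 in PBMCs. The ratio was lower in ileum (difference -2.75, exact permutation test over 4 ileal and 2 PBMC libraries, p = 0.0667, which is the smallest that 15 splits allow, so the design could not pass the threshold). The permutation took libraries of 1 pig as independent and used the split, so its p is a description. Without the library labelled whole ileum of pig 1 it was -2.74 (exact permutation test, 3 ileal and 2 PBMC libraries, p = 0.1, the smallest that 10 splits allow). In blood the plasma list gave 1.69 and 1.71 UMIs per cycling cell and 1.24 and 1.501 per resting cell. The depth differed as well, with medians of 6698 and 7794 UMIs against 3312.5 and 4162, and the part of either in the difference was not tested.

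**Figure D3:**
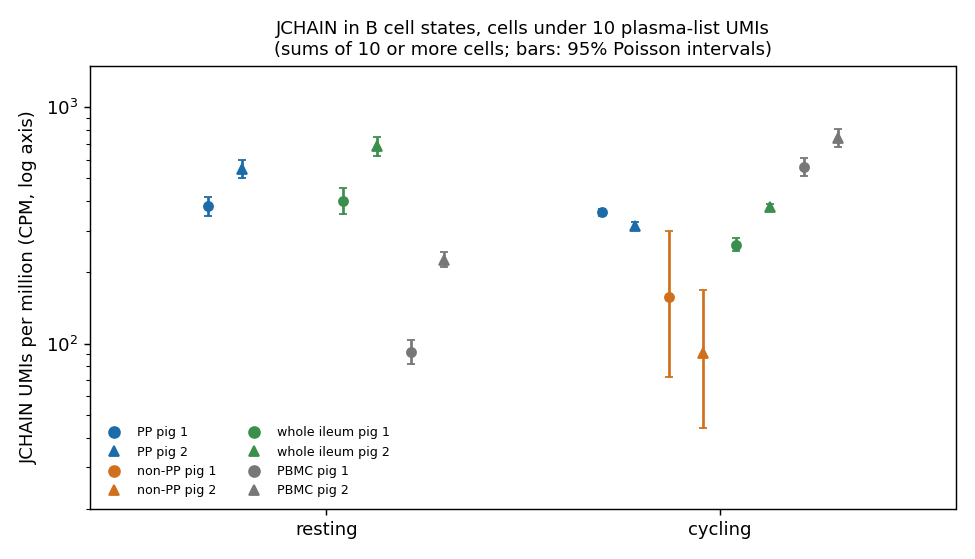
JCHAIN (CPM, log axis) in resting and cycling B cells of under 10 plasma-list UMIs, with points for libraries of 10 or more cells in the state (circles pig 1, triangles pig 2) and bars for 95% Poisson intervals, which cover counting error only. Cycling cells lie at or below resting cells in PP and whole ileum and above them in both PBMC libraries.

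JCHAIN was next compared between ileum with and without Peyer's patches. The clearest difference was in free RNA: ambient JCHAIN was 2.24 higher in PP than in non-PP on the log2 scale (SE 0.32, edgeR, adjusted p = 0.00602, 6.98% of 10067 genes called higher). Fewer ASCs and less RNA per ASC cannot be told apart in such pooled barcodes. Plasma-list-high cells were 224 of 7337 and 264 of 6872 quality-controlled cells in PP. In non-PP they were 14 of 3908 and 25 of 3776. At the lower quartile such a cell held 6 and 4 JCHAIN UMIs in PP and 106.25 and 374 in non-PP. Whether all of them were ASCs was not tested, nor was their part in the ambient difference. In barcodes of 1 to 49 UMIs the difference was 1.16 (adjusted p = 0.0256), and without the library labelled whole ileum of pig 1 it was 2.17 (adjusted p = 0.0152).

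Within the B, T and epithelial gates no difference in JCHAIN passed with all libraries and the filter on low counts. In B cells PP minus non-PP was -1.98 (SE 1.11, adjusted p = 0.843, 0.031% of genes called in either direction), and 1.23 in the split (SE 0.30, adjusted p = 0.831). The direction rested on 1 library, since without non-PP of pig 2 the gate value was 3.45 (adjusted p = 0.547). The B gate gave -1.94 with no filter and -1.20 with pig as a block and the library labelled whole ileum of pig 1 left out, with very small p from fits whose prior degrees of freedom were infinite, and these were not read as calls. In T cells it was -0.34 (SE 1.08, adjusted p = 0.936, 1.43% called), 1.46 in the split (adjusted p = 0.236) and 0.22 with pig as a block (adjusted p = 0.951). In epithelial cells it was 4.86 (SE 1.31, adjusted p = 0.643), and 2.14 in the split (SE 0.43, adjusted p = 0.252). With pig as a block and the library labelled whole ileum of pig 1 left out it was 4.13. That fit passed but left 1 library in the whole ileum group and was not read as a call. Without PP of pig 1 the difference was 1.90. In PP of pig 1, 1 cell held 2095 of the 2303 JCHAIN UMIs of the epithelial gate.

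Among plasma-list-high cells JCHAIN was lower in PP than in non-PP, by -1.18 on the log2 scale (SE 0.31, edgeR, adjusted p = 0.0307, 2.76% of 7249 genes called lower). Only non-PP of pig 2, at 104972 CPM from 25 cells, stood far above PP, and without it the difference was -0.24 (adjusted p = 0.413). The call was also lost without PP of pig 1 (-1.23, adjusted p = 0.0807) or PP of pig 2 (-1.18, adjusted p = 0.0820). The plasma-list-high cells also differed in make-up: at the median a PP cell held 53 and 27.5 JCHAIN UMIs and a non-PP cell 397.5 and 760. Secretion genes moved with JCHAIN, 14 of 20 lower in PP and 0 higher (median -1.16 against 0.17 over all genes). DNAJB9 fell by 1.54 on the log2 scale (SE 0.24, adjusted p = 0.00108), FKBP11 by 1.53 (SE 0.24, adjusted p = 0.00132), ERP44, which retains unassembled IgM, by 1.85 (SE 0.31, adjusted p = 0.00159, and without non-PP of pig 2 -0.84, adjusted p = 0.195) and SEC11C by 1.38 (SE 0.24, adjusted p = 0.00235). Among 6 homing genes CCR10 fell by 2.12 (SE 0.32, adjusted p = 0.000968, and without that library -1.03, adjusted p = 0.211), ITGA4 by 1.47 (SE 0.26, adjusted p = 0.00235) and CCR9, the receptor for small intestinal CCL25, by 2.32 (SE 0.61, adjusted p = 0.0293), while ITGB7 gave -0.94 (SE 0.29, adjusted p = 0.0652). The list was applied to cells chosen after the data were seen, so these counts are not independent evidence. With 1 library left out at a time, the CCR9 value ran from -3.08 to -0.83 and that of ITGA4 from -1.62 to -1.19. CCR9 and ITGA4 each lost the call in 1 alternative setting, while ITGB7 gained it in 6.

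Between ileum and blood, B cells differed by 1.90 in the gate (SE 0.99, edgeR, adjusted p = 0.170) and 0.18 in the split (SE 0.20, adjusted p = 0.544), with 14.3% of genes called higher and 19.2% lower in ileum. The gate value was 0.10 without non-PP of pig 2 (adjusted p = 0.892) and passed, at 2.23, without non-PP of pig 1 (adjusted p = 0.00162). Of 20 secretion genes 9 were higher and 4 lower in ileal B cells, among them HERPUD1, HSPA5 and PDIA4 of endoplasmic reticulum folding and stress, higher by 2.20 (SE 0.16), 2.07 (SE 0.20) and 1.53 (SE 0.17). CD38 was lower by -3.12 (SE 0.30), all 4 with adjusted p of at most 9.97e-05. The shift of the list was not particular to B cells. In T cells 13 of 21 secretion genes were higher in ileum and 1 lower, and in ambient barcodes 10 of 20 and 1. The median of the list was 0.59 in B cells, 0.60 in T cells and 0.65 in ambient barcodes. In T cells JCHAIN was higher in ileum by 4.53 (SE 1.19, adjusted p = 0.0241, 14.8% called higher) and by 2.77 in the split (SE 0.49, adjusted p = 0.00480). The gate value did not pass without whole ileum of pig 2 (4.33, adjusted p = 0.0556), PBMCs of pig 1 (4.64, adjusted p = 0.117) or PBMCs of pig 2 (4.43, adjusted p = 0.116), and it was 4.69 without the library labelled whole ileum of pig 1 (adjusted p = 0.0482). Ambient JCHAIN was higher in ileum by 1.62 (SE 0.28, adjusted p = 0.00546, 9.72% called higher) and moved with the T cell difference. Its part in that difference was not tested. Without PBMCs of pig 2 the ambient difference was 1.53 (adjusted p = 0.0742).

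PIGR was found almost solely in the epithelial gate. The gate held 136 and 46 cells in PP, 244 and 69 in non-PP and 55 and 96 in whole ileum, and gave 452 and 564 CPM in PP, 136 and 309 CPM in non-PP and 445 and 458 CPM in whole ileum. These cells were 0.669% to 6.24% of quality-controlled ileal cells and held 92.9% to 97.5% of PIGR UMIs in such cells.

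**Figure D4:**
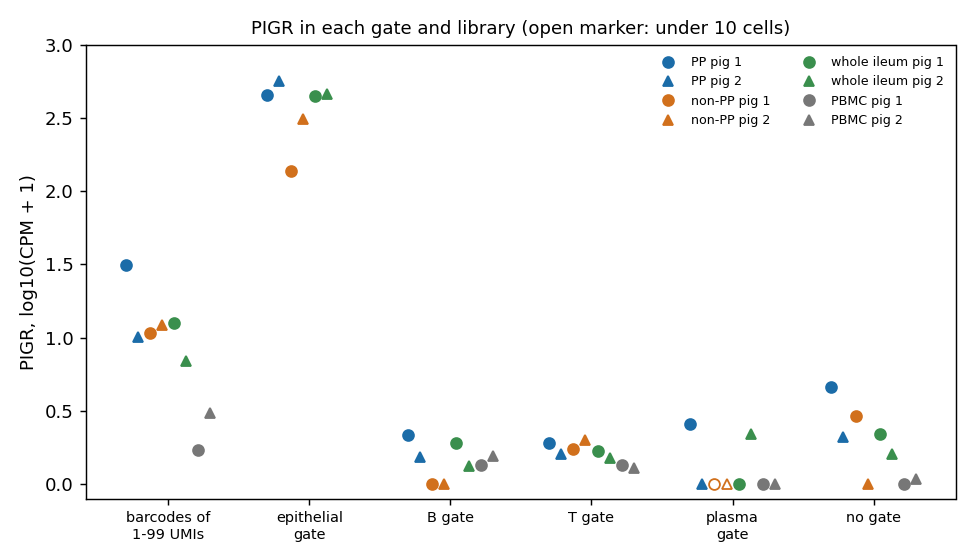
PIGR, as log10(CPM + 1), in barcodes of 1 to 99 UMIs, in each gate and in cells of no gate, where each point is 1 library (circles pig 1, triangles pig 2, open points under 10 cells). The 6 epithelial values, 136 to 564 CPM, lie above all other points, and B, T and plasma values lie below the ambient level of most libraries.

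Lymphocytes held next to none. The T gate gave 0.922 and 0.606 CPM in PP, 0.727 and 1.00 CPM in non-PP, 0.676 and 0.517 CPM in whole ileum and 0.357 and 0.288 CPM in PBMCs, which rest on 2 to 10 UMIs. B cells held 15 and 7 UMIs in PP, 0 and 0 in non-PP, 6 and 5 in whole ileum and 2 and 3 in PBMCs. The plasma gate held 1 UMI in PP of pig 1, 1 in whole ileum of pig 2 and 0 in the other 6 libraries. All quality-controlled PBMCs together held 7 and 8.

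Ambient PIGR stood at 30.2 and 9.14 CPM in PP, 9.73 and 11.2 CPM in non-PP, 11.5 and 5.97 CPM in whole ileum, and 0.697 and 2.08 CPM in PBMCs, from 2 and 7 UMIs. The epithelial gate exceeded it in 6 of 6 libraries, by 4.98 on the log2 scale (SD 1.01, exact sign-flip test, adjusted p = 0.0417). B and T cells lay below it in 6 of 6, with log2 ratios of -3.14 (SD 1.55) and -3.82 (SD 0.58, both adjusted p = 0.0417, same exact test). The plasma gate gave -1.54 (SD 2.42, exact sign-flip test, adjusted p = 0.25), with non-PP values set by 0 UMIs in 4 cells and in 1 cell. The non-PP B values likewise rest on 0 UMIs, in 20 and 36 cells, with upper Poisson limits of 49.1 and 20.7 CPM that lie above the ambient levels there. With a pseudocount of 3 counts the B ratio was -2.10, with 2 of 6 libraries above ambient, and no longer passed (exact sign-flip test, adjusted p = 0.167). Fitted over gates, PIGR was 8.70 higher in epithelial than in T cells (SE 0.20, edgeR, adjusted p = 8.38e-20, 32.6% of genes called higher). Ambient PIGR was also higher in ileum than in PBMCs, by 2.93 (SE 0.67, edgeR, adjusted p = 0.0188, 9.72% of genes called higher), though not without PBMCs of pig 1 (2.40, adjusted p = 0.130) or of pig 2 (3.91, adjusted p = 0.0842).

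Inside the epithelial gate PIGR was highest in crypt cells among the cells given a state. Cells were given the state whose marker list had most UMIs, and crypt cells (OLFM4, LGR5, ASCL2, SMOC2, EPHB2 and SOX9) held 1519 and 1136 CPM in PP, 1560 and 996 CPM in non-PP and 999 and 1088 CPM in whole ileum. Enterocytes, the absorptive cells, held 70.0 and 84.1 CPM in PP, 84.2 and 40.7 CPM in non-PP and 198 and 120 CPM in whole ileum. Crypt cells lay above enterocytes in 6 of 6 libraries, by 5.06 to 24.5 times, and the ranges did not overlap. Without the library labelled whole ileum of pig 1 it was 5 of 5, by 9.07 to 24.5 times.

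Crypt cells, 93 in all and 14.4% of the gate, held 76.5% of its PIGR UMIs, and 90 of the 93 had at least 1. The share with a UMI was 23.1% of 273 enterocytes, whose median depth was 10707 UMIs against 15706 in crypt cells. Thinning did not remove the gap: 54.5% to 84.0% of crypt cells and 0% to 18.6% of enterocytes kept a PIGR UMI. Every crypt library, at 996 CPM or more, also stood far above the ambient level. CD3 UMIs were present in 19.0% to 84.6% of the crypt cells of each library, and their part in the values was not tested.

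Secretory cells varied more. Goblet cells, the mucus producers, held 67.3 and 696 CPM in PP, 0 and 70.2 CPM in non-PP and 61.1 and 235 CPM in whole ileum. The 696 CPM rested on 1 of 6 cells, which held 67 of 72 UMIs, and in non-PP of pig 1 no UMI was seen in 81 goblet cells, which allows a share of up to 3.70% of cells with a UMI at a median of 7234 UMIs. Enteroendocrine cells held 0 UMIs in 48 cells, which allows a share of up to 6.25%, and both limits concern cells with a UMI, not cells that express the gene. The 11 cells of BEST4 type held 1 UMI. The 45 cells with no state ranged from 44.1 to 1193 CPM.

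**Figure D5:**
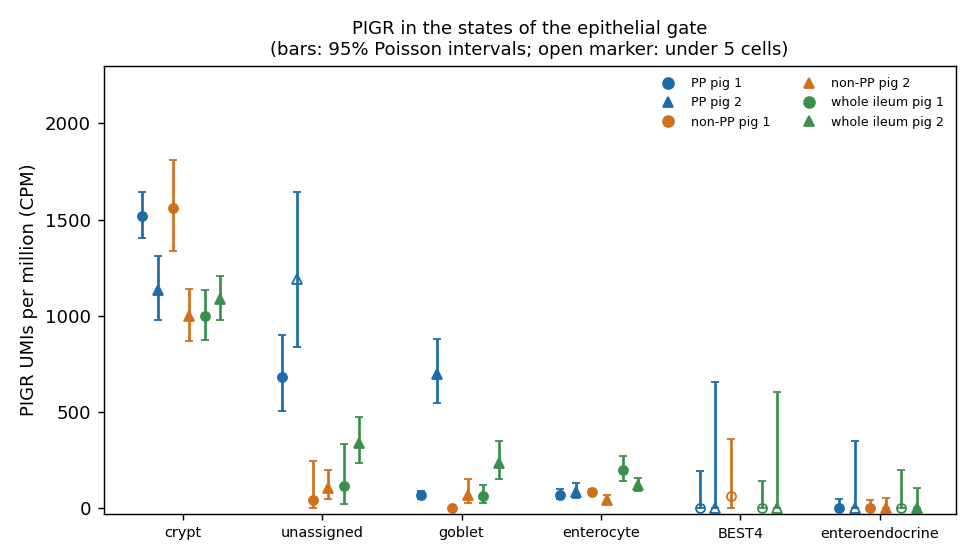
PIGR (CPM) in the states of the epithelial gate, with points for the 6 ileal libraries (circles pig 1, triangles pig 2, open points under 5 cells) and bars for 95% Poisson intervals, which cover counting error only. Crypt cells, 996 to 1560 CPM, lie above enterocytes, 40.7 to 198 CPM, in every library.

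PIGR in the epithelial gate differed by 1.14 between PP and non-PP (SE 0.37, edgeR, adjusted p = 0.879, 0.0286% of 7005 genes called), higher in PP but not past the threshold. With pig as a block the difference was 1.20 (edgeR, adjusted p = 0.204). It was 1.23 with the library labelled whole ileum of pig 1 left out as well, and 1.78 without non-PP of pig 2. These last fits passed but left 1 library in a group and were not read as calls. The make-up of the gate moved with it, crypt cells being 18.4% and 23.9% of the gate in PP, 3.69% and 18.8% in non-PP and 25.5% and 21.9% in whole ileum. Within crypt cells PP and non-PP overlapped, at 1519 and 1136 CPM against 1560 and 996 CPM, and within enterocytes at 70.0 and 84.1 CPM against 84.2 and 40.7 CPM.

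Genes of immunoglobulin transport were mostly higher in the epithelial gate than in T cells, 7 of 11 tested higher and 3 lower, against 32.6% and 37.4% of all genes (median 1.68 against -0.12 over all genes). RAB25, a GTPase of apical recycling, rose by 7.21 (SE 0.23) and MYO5B, the motor of those vesicles, by 6.81 (SE 0.29). FCGRT, the neonatal Fc receptor for IgG, rose by 2.71 (SE 0.13), while FCMR, the IgM receptor of lymphocytes, fell by 4.08 on the log2 scale (SE 0.21), with adjusted p of at most 6.65e-16 for RAB25 and MYO5B, 7.64e-15 for FCGRT and 1.68e-14 for FCMR (edgeR).

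Of 16 genes that regulate PIGR in other systems, 7 were higher and 6 lower in the epithelial gate, near the 32.6% and 37.4% of all genes called in each direction. IL13RA1 rose by 5.06 (SE 0.25) and IFNGR2, a chain of the interferon gamma receptor, by 3.04 (SE 0.32), while IL17RA fell by 3.42 on the log2 scale (SE 0.37, all 3 with adjusted p of at most 1.52e-08, edgeR). The median of the list was -0.09 and turned to 0.21 with DESeq2 size factors. CCL25, the chemokine that draws CCR9-bearing ASCs to the small intestine, was higher in epithelial cells by 7.27 (SE 0.29, adjusted p = 2.05e-16), and ITGB7, ITGA4 and CXCR4 were lower by -4.14 (SE 0.17), -4.11 (SE 0.22) and -3.95 (SE 0.18). In all, 2 of 7 homing genes were higher and 4 lower. Between PP and non-PP, 0 of 10 transport genes, 0 of 14 regulators and 0 of 5 homing genes passed within the epithelial gate. At an unadjusted p under 0.05 there were 340 of 7005 genes in that gate, and edgeR called 2 where DESeq2 called 33. 1 of the 2 was CD79B, a B cell gene, higher in PP by 5.43 (SE 0.47, edgeR, adjusted p = 0.0211), and the B gate list summed to 1.44 to 152 CPM over the 6 epithelial libraries. Its part in the PIGR difference was not tested.

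The genes whose levels ran most like those of PIGR over the 28 sums were SLC5A8, RASSF6 and FGFBP1 (each r = 0.993), EPHA2 and DAB2 (each r = 0.992), among 9907 genes compared. These correlations across gates describe the contrast of epithelial with other sums, which share libraries.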

How the data were processed

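Single-cell RNA-seq (10x Genomics 3′ chemistry) was run on 8 libraries, each sequenced in 4 runs. The authors deposited raw UMI counts for all barcodes, made with Cell Ranger (4.0.6 in the submitters' processing notes) against a modified pig annotation, before ambient or doublet removal. Features without a symbol (7170 of 25880) stayed in all fits.

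Cells with at least 1250 UMIs, at least 550 genes and at most 12.5% mitochondrial UMIs were kept. Raw counts were summed per gate and library, sums of under 10 cells were left out, and edgeR 4.0.16 (quasi-likelihood, TMM, filterByExpr, Benjamini-Hochberg over all genes, threshold 0.05) was fitted to PP against non-PP and ileum against PBMCs by group, and to gates and B cell states with library as a term. The SE printed with edgeR values is the absolute log2 difference divided by the square root of its quasi-likelihood F statistic. It is not a separately fitted standard error. Gate levels were compared with ambient by exact sign-flip tests with a pseudocount of 0.5 counts, sums of under 10 cells included. Shares were thinned to 1250 UMIs per cell, and intervals cover counting error only. Scrublet (scanpy 1.11.5) called 1563 doublets, which were kept except in one alternative. Tests were checked on simulated counts.

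Both members were named throughout, with up to 4 genes of each list by smallest adjusted p and the 5 genes of highest correlation. Some genes and 1 B cell state are not reported here. The members and lists were chosen with earlier results of these data known. Alternatives were DESeq2 1.42.0, no filter on low counts, each library left out, other gates and ambient limits, a pseudocount of 3, doublets removed and pig as a block. Libraries are paired by animal in the labels. Deviations from group means correlated at 0.144, 0.543 and 0.623 between same-numbered PP and non-PP libraries (B, T, ambient) and at -0.079 to 0.046 between whole ileum and the rest.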

Additional observations from a re-analysis of the deposited data

Results flagged for a closer look

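The log2 ratio of JCHAIN in cycling over resting B cells, without plasma-list-high cells, had opposite signs in the 2 tissues, with a mean of -0.59 over 4 ileal libraries (PP and whole ileum) and 2.16 over 2 PBMC libraries. All 4 ileal libraries were below 0 and both PBMC libraries above. The exact permutation test gave p = 0.0667, the smallest it can give here. It took libraries of 1 pig as independent and is a description. The ileal levels behind the ratio lay below the ambient level of their own libraries. Without the library labelled whole ileum of pig 1 the ileal mean was -0.58 over 3 libraries. In the B gate as first drawn, cycling cells lay above resting ones in PP and PBMCs and below them in whole ileum. Medians of UMIs per cycling cell were also higher in PBMCs, and the part of depth in this difference was not tested.

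PIGR was also found in barcodes that failed quality control, which no comparison used. It stood there at 110.0 and 24.6 CPM in PP, 35.6 and 35.4 CPM in non-PP and 30.0 and 14.3 CPM in whole ileum, against 0 CPM in both PBMC libraries. These barcodes held 5.96% to 36.3% of the PIGR UMIs of each ileal library.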

How the results depend on the processing

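The 2 pigs, and the few cells in non-PP B, plasma and epithelial sums, limit these results most, and depth limits PIGR in lymphocytes, where counts are a handful of UMIs. Of 266 alternative values of the main results, 229 were scored as unchanged in direction and side of the threshold. A further 16 were scored as losing the call, 10 as gaining it and 11 as reversed. The 229 include exact sign-flip tests against ambient with 1 library left out. No such test can pass with 5 libraries, so the calls made with 6 were lost there. The score did not count that as a loss. Of 552 values for single genes and counts of genes, 504 were scored as unchanged. Log2 values follow, with edgeR adjusted p unless another test is named, and the cause of each change was not tested except where the setting itself shows it.

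With plasma-list-high cells left out (an alternative chosen after seeing the data), cycling minus resting became -0.80 (adjusted p = 2.85e-08), PP minus non-PP 1.23 in B cells (0.831) and 1.46 in T cells (0.236), and against ambient JCHAIN in B gave -2.87 and PIGR in plasma -4.05 (exact sign-flip test, adjusted p = 0.03125). Alternative gates gave B minus T of -0.48 (0.205), and these took plasma-list-high cells out of B but not out of T. With no filter on low counts B cells gave -1.94 for PP minus non-PP (9.71e-38) and 1.90 for ileum minus PBMCs (1.49e-47); the prior degrees of freedom were estimated as infinite there, so these p are not relied on. A pseudocount of 3 gave, against ambient, -2.10 for PIGR in B (exact test, adjusted p = 0.167), 0.56 for PIGR in plasma (0.786), and at an adjusted p of 0.05, which does not pass, -2.75 and -3.31 for JCHAIN and PIGR in T, 4.40 for JCHAIN in plasma and -4.08 and 4.90 for JCHAIN and PIGR in epithelial cells.

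With pig as a replicate block, PP minus non-PP of JCHAIN in T cells was 0.22 (adjusted p = 0.951). The block changed no other call on the members' group comparisons, but it called 441 genes in place of 149 in T cells and 31 in place of 2 in epithelial cells between PP and non-PP. With the block and without the library labelled whole ileum of pig 1 (also chosen after seeing the data), PP minus non-PP was -1.20 in B (6.57e-20), 0.11 in T (0.977), -0.95 in plasma-list-high cells (0.573) and 1.23 for PIGR in epithelial cells (0.0105), and ileum minus PBMCs was 1.58 in B (2.81e-53). The B and plasma-list-high fits of this setting had infinite prior degrees of freedom too. Every fit of this setting left 1 library in the whole ileum group, and none of its p is relied on.

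Leaving out 1 library at a time gave -0.51 to 0.13 for cycling minus resting (0.13 without whole ileum of pig 2), and for PP minus non-PP -2.94 to 3.45 in B, -1.31 to 3.18 in T, 0.25 of these without PP of pig 2 and 3.18 without non-PP of pig 2, -1.66 to -0.24 in plasma-list-high cells, 0.69 to 1.78 for PIGR in epithelial cells and -0.36 to 1.38 for ambient PIGR (-0.36 without PP of pig 1). For ileum minus PBMCs it gave 0.10 to 2.23 in B (2.23 without non-PP of pig 1, adjusted p = 0.00162), 3.36 to 4.85 in T, 1.45 to 1.83 for ambient JCHAIN and 2.40 to 3.91 for ambient PIGR.

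DESeq2 size factors shifted the median of all genes and the split of calls (higher and lower): plasma minus B 1059 and 456 against 727 and 994 with edgeR (median 0.05 against -0.18), epithelial minus T 3808 and 2535 against 3093 and 3554 (0.16 against -0.12), cycling minus resting 1759 and 2514 against 2451 and 2251 (-0.12 against 0.02), and plasma-list-high PP minus non-PP 170 and 233 against 230 and 200.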
